A study of Mus musculus with 4 samples.

Results

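The genes described here are those of oxidative phosphorylation, taken by symbol as every gene that starts with Nduf, Uqcr, Atp5 or mt- and every Cox gene of the subunit numbers 4 to 8. They were 101 of the 27998 genes in the deposited tables, of which 88 are encoded in the nucleus and 13 on the mitochondrial chromosome (mt-). All 101 had at least 1 unique molecular identifier (UMI, the tag that marks a single captured RNA molecule) in the 4 libraries together. By role, the nuclear members were 7 core and 29 supernumerary subunits of complex I, 8 subunits of complex III, 19 of complex IV, 15 of complex V, and 10 assembly or accessory factors. The mt- members were 7 subunits of complex I, 1 of complex III, 3 of complex IV and 2 of complex V.

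Inner ear organoids were grown from R1/E, a mouse embryonic stem cell line derived from a 129X1x129S1 strain, and sequenced as single cells at day 25 and day 35. The wild type (WT) groups were organoids of R1/E itself, labelled Wild-Type_R1/E, and the knockout (KO) groups were organoids of its derivative labelled Tmprss3KO-GFPKI, at the same 2 ages. The labels do not give the number of KO clones or of organoids pooled. Each of the 4 groups had 1 library, so no difference between groups has a replicate check, and intervals quoted are 95% intervals that cover counting error only. Values of the 4 libraries are given in the order WT day 25, KO day 25, WT day 35 and KO day 35 unless named.

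Barcodes with at least 500 genes numbered 9963, 11304, 9236 and 7075, with a median of 6190, 6381, 3116 and 4448 UMIs. The WT day 35 library stood apart by its low depth and its high mt- share, and since it is the whole of its group it could not be left out. It enters the comparison of genotypes at day 35 and the comparison of days in WT, which therefore share it, and not the other 2 comparisons. Pairs of libraries shared between 76 and 142 cell barcodes. Tmprss3 itself had 18, 8, 14 and 8 UMIs, and since the tags come from the 3′ end and may lie outside the disrupted part, these do not check the genotype. At day 35 both libraries also held more of 15 immediate early and heat shock genes (5913, 6923, 11080 and 11620 CPM, UMIs per 1000000 outside the mt- genes) and fewer cytosolic ribosomal protein transcripts (298900, 309500, 226300 and 222900 CPM) than at day 25. The part of these shifts in the results below was not tested.

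Oxidative phosphorylation passes electrons from NADH and succinate through complexes I to IV of the inner mitochondrial membrane to oxygen, and complex V, the ATP synthase, uses the proton gradient so made to form ATP. The mitochondrial chromosome encodes a few membrane subunits at the heart of complexes I, III, IV and V, while the nucleus encodes all the others and the factors that assemble them. Several subunits of complex IV exist as pairs of isoforms, a widely expressed form and one found mainly in heart and skeletal muscle, in testis or at low oxygen. In the inner ear, hair cells are known as cells with a high demand for ATP.

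Promoter windows of 300 bases (250 before and 50 after the annotated start, from RefSeq on GRCm38.p6) were found for 73 of the 88 nuclear members. Those with no entry included Ndufs1, Cox4i2, Ndufaf6, Uqcrc2, Cox6a2, Ndufa4l2, Cox4i1, Uqcrq, Uqcrb, Cox8c, Cox6c, Ndufb9, Ndufa2 and Atp5a1. Windows were searched on both strands for the core of the site of NRF1 (GCGCATGC), an ETS site (CCGGAAG), a YY1 site (AAGATGGC), the core of the site of the estrogen-related receptors (AAGGTCA) and an E-box of the kind bound by myogenic factors (CAGCTG). NRF1, ETS factors of the GABP kind and YY1 are known regulators of respiratory chain genes. The NRF1 core lay in the windows of 11 of the 73 members (15.1%), against 3.05% of 27025 genes. The ETS letters lay in 15 (20.5%, against 9.93%) and the YY1 letters in 11 (15.1%, against 3.19%). The estrogen-related receptor letters lay in 7 (9.59%, against 5.38%) and the E-box in 6 (8.22%, against 18.3%). The first 4 motifs were thus held by a larger share of these windows than of all windows, and the E-box by a smaller share. A match is only a match of letters. Windows are shown for Cox6a1 and Cox8a, widely expressed subunits, for Cox8b, the muscle and fat partner of Cox8a, and for Ndufb4, which was higher at day 35 in both genotypes, with matches in capitals.
Cox6a1, chr5:115348909-115349208, minus strand, with the NRF1 core on both strands in 1 overlapping run and an ETS match: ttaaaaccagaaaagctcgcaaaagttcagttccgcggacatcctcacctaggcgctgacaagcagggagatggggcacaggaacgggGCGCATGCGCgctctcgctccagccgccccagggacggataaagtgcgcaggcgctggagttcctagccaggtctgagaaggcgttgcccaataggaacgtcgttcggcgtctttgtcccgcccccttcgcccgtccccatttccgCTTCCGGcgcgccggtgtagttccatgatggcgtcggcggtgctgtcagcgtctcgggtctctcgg
Cox8a, chr19:7217567-7217866, minus strand, with 2 ETS matches: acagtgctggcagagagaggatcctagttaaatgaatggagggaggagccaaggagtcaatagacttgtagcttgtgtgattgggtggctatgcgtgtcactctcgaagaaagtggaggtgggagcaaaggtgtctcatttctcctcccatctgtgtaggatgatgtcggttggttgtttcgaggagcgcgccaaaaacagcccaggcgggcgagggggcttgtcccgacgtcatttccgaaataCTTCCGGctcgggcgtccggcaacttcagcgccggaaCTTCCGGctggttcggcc
Cox8b, chr7:140900397-140900696, minus strand, with 2 E-boxes: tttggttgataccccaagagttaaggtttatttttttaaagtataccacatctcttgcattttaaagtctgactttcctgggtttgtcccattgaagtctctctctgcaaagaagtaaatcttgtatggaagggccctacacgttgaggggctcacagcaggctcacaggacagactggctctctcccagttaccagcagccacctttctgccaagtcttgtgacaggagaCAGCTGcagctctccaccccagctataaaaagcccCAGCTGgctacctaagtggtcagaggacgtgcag
Ndufb4, chr16:37654319-37654618, minus strand, with an estrogen-related receptor match: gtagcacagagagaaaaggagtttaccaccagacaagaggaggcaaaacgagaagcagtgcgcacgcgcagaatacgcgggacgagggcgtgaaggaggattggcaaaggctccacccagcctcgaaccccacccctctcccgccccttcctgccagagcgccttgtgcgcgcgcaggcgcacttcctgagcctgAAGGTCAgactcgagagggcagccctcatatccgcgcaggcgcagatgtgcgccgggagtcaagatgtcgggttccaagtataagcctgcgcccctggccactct
Counted from the start site, the NRF1 core of Cox6a1 begins at base -162 and its ETS match at -16. The ETS matches of Cox8a begin at -5 and 33, the E-boxes of Cox8b at -19 and 17, and the match of Ndufb4 at -55.

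In whole libraries, mt- transcripts made up 3.42%, 2.72%, 6.18% and 4.29% of all UMIs. Their share was larger in the day 35 library of each genotype, and at either age it was smaller in KO. Malat1 and Neat1, RNAs kept in the nucleus, together held 19210, 15870, 37520 and 27470 CPM outside the mt- genes and put the libraries in the same order as the mt- share; their part in the result was not tested. The median barcode showed the same order, at 2.73%, 2.17%, 5.36% and 3.62%. Barcodes with more than 10% mt- UMIs numbered 195 (1.96%), 114 (1.01%), 1070 (11.6%) and 346 (4.89%). Levels of mt- genes are given as CPM of all UMIs, and those of nuclear members as CPM outside the mt- genes. The nuclear members together held 34360, 34970, 42880 and 37970 CPM. The nuclear sum thus spanned a narrower range than the mt- share, and UMIs of mt- members over those of nuclear members came to 1.03, 0.80, 1.54 and 1.18. In such sums fewer cells of a type and less RNA per cell cannot be told apart.

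Across barcodes of a library, the mt- share and the CPM of the nuclear members had Spearman correlations of 0.50, 0.51, 0.42 and 0.42, where both values come from the same barcode and share its depth. Of the 13 mt- genes, 12 were highest in WT day 35 and 12 lowest in KO day 25. Of the 88 nuclear genes, 48 were highest in WT day 35, 20 in WT day 25, 15 in KO day 35 and 5 in KO day 25.

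Among the mt- genes, those of cytochrome c oxidase (mt-Co1 and mt-Co3) and mt-Atp6, the proton channel subunit of the ATP synthase, held the most UMIs. In CPM, mt-Co1 stood at 7174, 5925, 13730 and 10120. The level of mt-Co3 was 7268, 5613, 10190 and 7175 CPM, and that of mt-Atp6 was 5953, 4874, 14470 and 8867. All 3 were lowest in KO day 25 and highest in WT day 35, and the WT day 35 value of mt-Atp6 was the highest of any member. Divided by gene length, mt-Atp6 held 255, 263, 344 and 304 UMIs per base for each 1000000 mt- UMIs. On the same scale mt-Nd6, the only one of the 13 on the other strand, held 0.567, 0.678, 0.612 and 0.672. A 3′ tag counts each molecule once, so these are densities and not levels corrected for length.

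The complex I genes spanned a wide range of levels. In CPM, mt-Nd1 stood at 4223, 3230, 5926 and 3936 and mt-Nd4 at 1629, 1215, 2835 and 2128. Lower were mt-Nd5 (229, 184, 348 and 310) and mt-Nd4l (99.9, 83.0, 231 and 141). The remaining oxidase gene, mt-Co2, stood at 2781, 2149, 5138 and 3832, and mt-Nd6 at 10.1, 9.58, 19.6 and 14.96. Each of these 6 genes was lowest in KO day 25 and highest in WT day 35.

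The make-up of the mt- pool also shifted with age. The share of mt-Atp6 among mt- UMIs was 17.4%, 17.9%, 23.4% and 20.7%, and that of mt-Co3, its downstream neighbour, was 21.2%, 20.6%, 16.5% and 16.7%. The subunit gene mt-Nd1 took 12.3%, 11.9%, 9.59% and 9.18%. So mt-Atp6 held more of the pool at day 35 in both genotypes, and mt-Co3 and mt-Nd1 less. Neighbouring mt- genes overlap on the chromosome (mt-Atp8 and mt-Atp6 share 43 bases, mt-Atp6 and mt-Co3 1, mt-Nd4l and mt-Nd4 7), and reads in shared bases are uncertain between them. Whether the counts of such neighbours stand for separate transcripts was not tested.

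**Figure D1:**
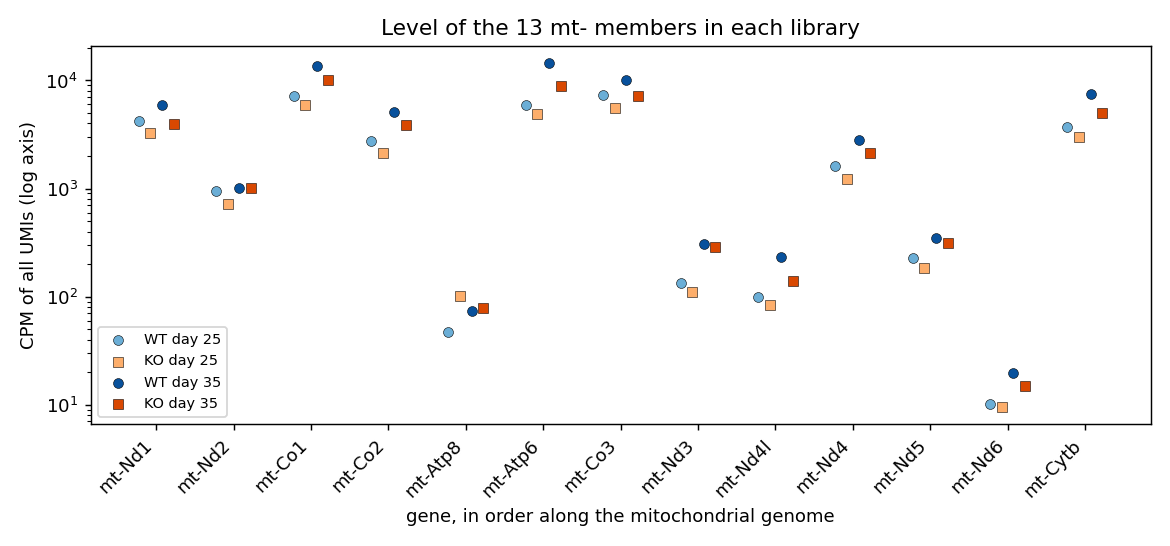
CPM of the 13 mt- genes in each library, on a log axis, in their order along the mitochondrial chromosome; each point is 1 library. For 12 genes the WT day 35 point is the highest, and mt-Atp8 is the exception, highest in KO day 25.

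Changes are called here where a gene with at least 50 UMIs in the 2 libraries together differed by at least 1.5-fold, a log2 ratio of 0.585. Between days in WT, 10 of 13 mt- genes (76.9%) were called higher at day 35 and 0 lower, with a median log2 ratio of 0.89. In KO it was 9 of 13 (69.2%), 0 lower, with a median of 0.75. Of all 15091 genes tested between days in WT, 16.9% were called higher and 23.0% lower, and of 15388 in KO 23.8% were called higher and 12.6% lower. The calls were held in both genotypes by mt-Co1, mt-Co2, mt-Atp6, mt-Nd3, mt-Nd4l, mt-Nd4, mt-Nd5, mt-Nd6 and mt-Cytb. The gene of a complex I membrane subunit, mt-Nd3, stood at 133, 111, 306 and 285 CPM, with log2 ratios of 1.20 in WT (interval 1.16 to 1.24) and 1.36 in KO (1.32 to 1.40). Both day 35 libraries were above both day 25 libraries for this gene. By contrast mt-Nd2 stood at 944, 712, 1004 and 1002 CPM and passed the fold in neither genotype (0.088 in WT and 0.49 in KO).

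Between genotypes, 12 of 13 mt- genes were lower in KO at both ages, as were 2354 of the 14281 genes measured at both. At each age the interval lay below 0 for 11 of the 13 mt- genes. It crossed 0 for mt-Nd6 at day 25 (-0.072) and for mt-Nd2 at day 35 (-0.0019). The median log2 ratio of the mt- genes was -0.31 at day 25 and -0.42 at day 35. At day 25 none of the 12 passed the fold, and at day 35 it was passed by mt-Nd1 (-0.59), mt-Cytb (-0.59), mt-Nd4l (-0.71) and mt-Atp6 (-0.71). The background at day 25 was 4.15% of 15631 genes called higher and 9.44% lower, and at day 35 17.0% of 14514 higher and 5.73% lower. For mt-Cytb, the only mt- gene of complex III, the levels were 3741, 3022, 7501 and 4971 CPM.

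The exception at day 25 was mt-Atp8, the small second mt- subunit of the ATP synthase. It stood at 47.2, 101, 73.7 and 79.0 CPM, from 3546, 8675, 2632 and 3201 UMIs. The KO day 25 library was thus the highest, 2.14-fold above WT day 25 (log2 1.10, interval 1.04 to 1.16), while at day 35 the genotypes differed by 0.10. Its overlapping partner mt-Atp6 was lower in KO at day 25 (-0.29). Within cell classes, defined below, mt-Atp8 was at least 1.5-fold higher in KO in 14 of 14 classes at day 25 (log2 0.78 to 1.68), and at day 35 it was higher in 8 of 13, with 1 past the fold. The gene lies at bases 7766 to 7969 of the mitochondrial chromosome and held 0.371% of mt- UMIs in KO day 25 against 0.119% to 0.184% in the other libraries. The 14 classes rest on the same libraries and are not replicates. Whether mt-Atp8 UMIs stand for a transcript apart from that of mt-Atp6 was not tested.

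Nuclear members moved less. Between genotypes at day 25, 42 of 87 measured nuclear members were higher and 45 lower in KO, with a median log2 ratio of -0.015; 0 were called higher and 1 lower (1.15%), Cox7b2. At day 35, 28 were higher and 59 lower, with a median of -0.12; 2 were called higher (2.3%) and 2 lower (2.3%), all isoforms of complex IV described below. Between days, 60 of 87 were higher at day 35 in WT, with a median of 0.30, and 22 were called higher (25.3%) and 5 lower (5.75%). In KO, 61 of 87 were higher, with a median of 0.16, and 9 were called higher (10.3%) and 0 lower. Set against the shares of all genes above, the called share of nuclear members exceeded the background only for higher calls between days in WT, a difference that was not tested.

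The median of all genes tested itself lay at -0.043 and 0.19 between genotypes at day 25 and day 35, and at -0.077 and 0.16 between days in WT and KO. Relative to that median, the nuclear members lay at -0.31 between genotypes at day 35 and at 0.00011 between days in KO. The mt- members lay at -0.62 between genotypes at day 35. So in KO the nuclear members as a group moved between days by what the median gene moved, and their lower median at day 35 in KO was wider on this scale. The sign of the nuclear median at day 25 turned from -0.015 to 0.051 when the median over cell classes was taken.

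**Figure D2:**
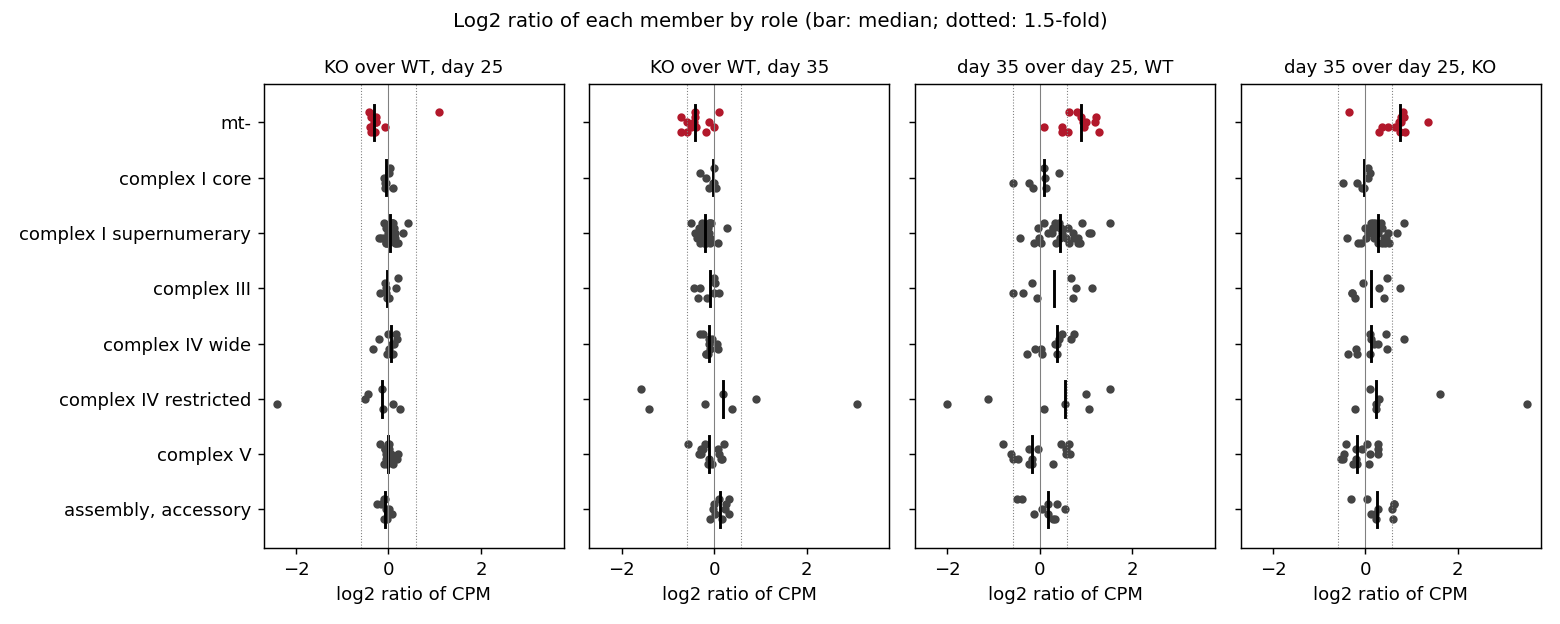
Log2 ratios of the measured members in the 4 comparisons, grouped by role; each point is 1 gene, bars are medians, and dotted lines mark the 1.5-fold limits. Supernumerary subunits of complex I lie mostly above 0 between days in WT (25 of 29) and mostly below 0 between genotypes at day 35 (27 of 29).

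In complex I, the 7 core subunits, which carry the flavin and the iron-sulfur clusters, had a median log2 ratio between days of 0.087 in WT and -0.037 in KO, and 0 were called. The 29 supernumerary subunits, which surround that core, had medians of 0.44 and 0.27, with 25 of 29 higher at day 35 in each genotype. Those called higher were 11 in WT (37.9%, against 16.9% of all genes) and 2 in KO (6.9%, against 23.8%). The called share thus lay above that of all genes in WT and below it in KO. Coding sequences of the core subunits run from 636 (Ndufs8) to 2181 bases (Ndufs1), while most supernumerary ones are under 450 bases. Role thus goes with coding length, described below, and the part of each was not tested. Ndufa1, a small subunit of the membrane arm, stood at 117, 158, 338 and 281 CPM, with log2 ratios of 1.53 in WT (1.49 to 1.57) and 0.83 in KO (0.80 to 0.87). Ndufb4, of the same arm, stood at 247, 274, 532 and 441 CPM, with 1.11 in WT and 0.69 in KO. For both genes the day 35 libraries lay above the day 25 libraries, and these were the only supernumerary subunits called in both genotypes. Ndufa3 stood at 247, 306, 515 and 428 CPM and was called in WT (1.06) but not in KO (0.48).

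By UMIs, the nuclear complex I subunit with the highest mean was Ndufa7, at 510, 561, 900 and 800 CPM, called higher at day 35 in WT (0.82) and short of the fold in KO (0.51). Ndufa10, one of the larger supernumerary subunits, lay lower at day 35 and stood at 200, 173, 150 and 132 CPM (-0.42 in WT and -0.39 in KO, short of the fold). Between genotypes at day 35, 27 of 29 supernumerary subunits were lower in KO with a median of -0.20 and 0 called; this comparison shares the WT day 35 library with the comparison of days in WT. Of these values the lowest was that of Ndufa5 (-0.51; 426, 450, 806 and 566 CPM), and Ndufc2 was one of the 2 higher in KO (0.28; 327, 317, 318 and 386 CPM).

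The 8 assembly factors of complex I were low, each at most 57.2 CPM. Ndufaf1 (14.7, 13.8, 18.4 and 20.8 CPM), Ndufaf4 (36.1, 30.4, 46.6 and 46.8) and Ndufaf7 (20.7, 18.4, 23.5 and 28.2) were called higher between days in KO, at 0.60, 0.62 and 0.61. In WT the same 3 genes lay at 0.33, 0.37 and 0.19, short of the fold. Cox7a2l, a factor that links complexes III and IV into supercomplexes, stood at 595, 561, 425 and 455 CPM and was lower at day 35 without passing the fold (-0.49 and -0.30).

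In complex III, the most abundant nuclear member by UMIs, the small hinge protein Uqcrh, stood at 964, 970, 931 and 832 CPM and changed little (-0.051 in WT and -0.22 in KO). Uqcrb, a small subunit known to bind quinone, stood at 492, 472, 1077 and 799 CPM, with log2 ratios between days of 1.13 in WT (1.11 to 1.15) and 0.76 in KO (0.74 to 0.78). Both day 35 libraries lay above both day 25 libraries. Of the other small subunits, Uqcr10, Uqcr11 and Uqcrq were called higher in WT (0.67, 0.77 and 0.72) and not in KO (0.47, 0.29 and 0.40). None of the 3 larger subunits was called: Uqcrfs1, the Rieske iron-sulfur protein, lay at -0.36 and -0.30, Uqcrc1 at -0.17 and -0.059, and Uqcrc2 at -0.57 and -0.29.

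In complex IV, the most abundant widely expressed subunits by UMIs, on a 3′ scale that counts each molecule once, were Cox4i1 (1809, 1779, 1494 and 1362 CPM) and Cox8a (1392, 1493, 1806 and 1604 CPM). Cox4i1 was the highest nuclear member at day 25 and Cox8a at day 35. Ndufa4, now placed in complex IV, stood at 777, 674, 1242 and 1205 CPM and was called higher at day 35 in both genotypes (0.68 and 0.84). The widely expressed partners of the restricted forms, Cox6a1 (595, 645, 745 and 778 CPM), Cox6b1 (816, 910, 1144 and 971), Cox7a2 (512, 540, 668 and 616) and Cox7b (363, 368, 338 and 318), passed the fold in no comparison. Cox6c was called in WT alone (831, 820, 1382 and 1113 CPM, 0.73 and 0.44). Cox5a differed between genotypes at day 25 by less than the fold (427 CPM in WT and 337 in KO, -0.34).

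Complex V was the complex whose nuclear median lay below 0 between days, at -0.17 in WT and -0.18 in KO. Its 6 genes grouped here as F1 head and stalk, Atp5o among them, had medians of -0.35 and -0.30. The 9 grouped as membrane part and peripheral stalk had 0.30 and 0.045. Atp5o encodes OSCP, a protein also counted in the peripheral stalk, and lay at -0.033 and -0.20. The medians of both groups therefore depend on where Atp5o is placed. Atp5a1 and Atp5b encode the alpha and beta subunits of the catalytic head. Atp5a1 stood at 544, 482, 314 and 362 CPM and was called lower in WT (-0.79) but not in KO (-0.41). Atp5b stood at 928, 887, 601 and 648 CPM (-0.63 and -0.45). Atp5g2, 1 of 3 genes of the same c-ring protein, stood at 695, 732, 463 and 522 CPM and was called lower in WT (-0.586), with -0.49 in KO. All 3 genes were lower in both day 35 libraries than in both day 25 libraries. Its sister gene Atp5g1 stood at 540, 535, 741 and 644 CPM and did not pass the fold (0.45 and 0.27). Atp5g3, the last of the 3, stood at 278, 315, 246 and 274 CPM. The most abundant by UMIs, the small membrane subunit Atp5l, stood at 910, 921, 1343 and 1110 CPM (0.56 and 0.27). Among other small subunits, Atp5k (481, 485, 742 and 501 CPM, 0.63 and 0.045) and Atp5j (596, 621, 942 and 750, 0.66 and 0.27) were called higher in WT alone.

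In all, 5 nuclear members were called higher between days in both genotypes (Ndufa1, Ndufb4, Uqcrb, Ndufa4 and Cox7a1), which is 5 of the 22 called in WT and 5 of the 9 called in KO. They are 5.75% of the 87 measured, where 1759 of 14847 genes (11.8%) were called higher in both. By sign alone, 55 of the 87 were higher at day 35 in both genotypes, 21 were lower in both and 11 went opposite ways; of all genes, 5889 (39.7%) were higher in both. The 2 comparisons share no library.

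The direction between days went with the length of the coding sequence, a property the symbols do not fix. Of the 48 nuclear members with coding sequences under 450 bases, 40 were higher at day 35 in WT with a median log2 ratio of 0.57. The 25 members of 450 up to 900 bases had a median of 0.095, and the 14 of 900 bases or more had -0.16, with 4 of 14 higher. In KO the medians were 0.27, 0.048 and -0.048. Over all nuclear genes tested, the same length classes had medians of 0.20, 0.023 and -0.14 in WT and of 0.26, 0.21 and 0.14 in KO. The order of the length classes was therefore not confined to the members. The short class of members lay at 0.57 against 0.20 for all short genes in WT, and at 0.27 against 0.26 in KO. The Spearman correlation of coding length with the log2 ratio across members (n = 87) was -0.604 in WT and -0.400 in KO, against -0.126 and -0.0696 across all genes. Between genotypes it was -0.448 at day 25 and 0.439 at day 35, so that the sign turned between ages, against 0.00412 and 0.124 across all genes. The day 35 value between genotypes and the WT value between days share the WT day 35 library. Genes are not independent replicates, and each panel rests on the same 2 libraries.

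**Figure D3:**
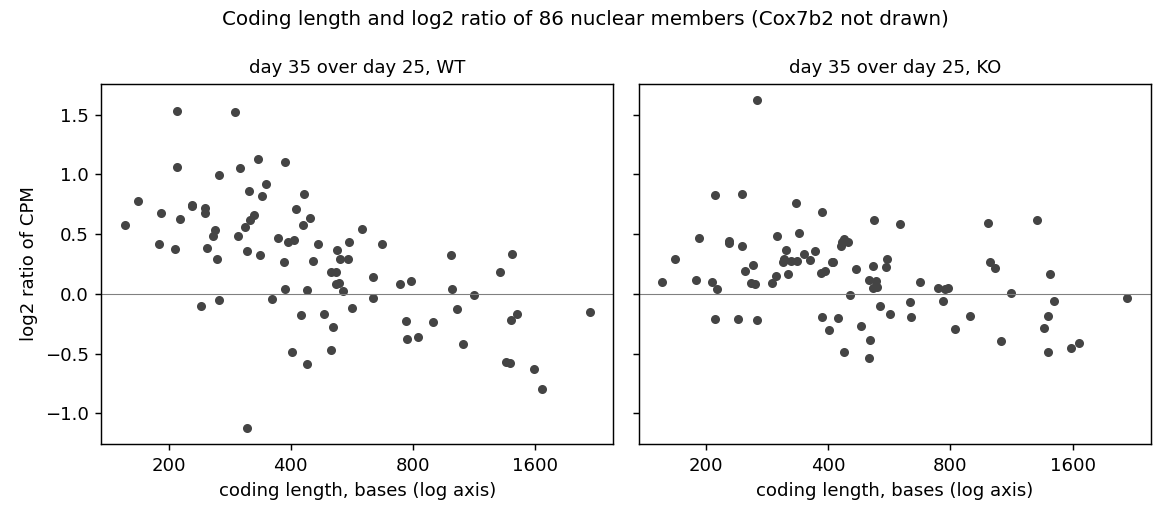
Log2 ratio of day 35 over day 25 in WT and KO against the coding length in bases (log axis) for 86 nuclear members; each point is 1 gene and Cox7b2, with few UMIs, is not drawn. Points of short genes lie mostly above 0, and in WT 4 of the 14 members of 900 bases or more do.

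To see which cells held these transcripts, barcodes of the 4 libraries were clustered without any member among the variable genes, which gave 28 clusters. They fell into 16 classes named by fixed markers and 4 clusters that stayed unnamed (0, 2, 5 and 10). Clusters without a name are called by number: unnamed 0 was led by Ibsp, Nrn1 and Pgf, and unnamed 2 by Mmp3, Ero1l and Hspa5. Several named classes were held by different clusters at the 2 ages: mesenchymal or fibroblast-like by cluster 1 at day 25 and 6 at day 35, myogenic progenitor-like by 8 and 12 at day 25 and mostly 14 at day 35, and otic fibrocyte-like mostly by 27 in WT at day 25 and by 3 at day 35. Values below are sums over the class in a library, for classes with at least 20 barcodes there.

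The adipocyte-like class (213, 174, 20 and 116 barcodes) had the highest nuclear sum by the mean over libraries, first at day 25 and second to myotube-like cells at day 35. It stood at 81880, 78910, 64830 and 58760 CPM, and its mt- share was 11.5%, 7.46%, 8.54% and 4.02%. Of the 88 nuclear members, 59 had their highest level in this class with UMIs pooled over the 4 libraries. The mean over libraries, a measure chosen after the data were seen, gave 54. Within WT day 25, KO day 25, WT day 35 and KO day 35 alone the count was 73, 69, 31 and 13, and at day 35 the skeletal myotube-like class held 37 and 47 in WT and KO. The share of all genes highest in the adipocyte-like class is not given, so these counts have no background beside them. On the pooled levels, after 10 CPM were added to each value, the log2 difference from the median class was 1.84 for Ndufb9, 1.79 for Uqcrq, 1.75 for Atp5b, 1.75 for Uqcr11, 1.72 for Uqcrc1 and 1.71 for Cox7b, so that subunits of 4 complexes were among the 10 most uneven members. Unlike most classes, its values were lower in the day 35 library of each genotype, with log2 ratios of the nuclear sum of -0.34 in WT and -0.43 in KO, and of the mt- share of -0.43 and -0.89. Ucp1, the uncoupling protein of brown fat, had 92, 51, 3 and 1 UMIs per library, of which 82, 45, 0 and 0 lay in this class. With 20 barcodes in WT day 35, that value rests on few cells.

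The skeletal myotube-like class (565, 489, 1035 and 279 barcodes) had the second highest mean nuclear sum, at 46110, 52070, 65910 and 67020 CPM. Its mt- share was 4.66%, 4.65%, 9.42% and 8.80%. Both sums were higher at day 35 in both genotypes, the mt- share by 1.02 in WT and 0.92 in KO on the log2 scale and the nuclear sum by 0.52 and 0.36. Within this class the log2 ratios of KO over WT were -0.0016 at day 25 and -0.097 at day 35 for the mt- share, and 0.18 and 0.024 for the nuclear sum. The class made up a smaller part of the KO library at day 35 (279 of 7075 barcodes) than of the WT library (1035 of 9236). Myogenic progenitor-like cells stood lower, at 36800, 40480, 43490 and 40090 CPM.

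Hair cell-like cells (24, 137 and 52 barcodes in WT day 25, WT day 35 and KO day 35; 14 in KO day 25, not used) ranked first for the mt- share by the mean over libraries, and had the highest share of any class in WT day 35. It stood at 7.43%, 11.6% and 8.57%, with nuclear sums of 33110, 48580 and 44240 CPM. Their mt- UMIs over those of nuclear members came to 2.42, 2.69 and 2.12, where those whole libraries lay at 1.03, 1.54 and 1.18. A ratio above 2 was not confined to them. In the same 3 libraries otic epithelial-like cells stood at 1.46, 2.22 and 1.66. Unnamed 10 stood at 2.02 in WT day 35, and unnamed 2 at 4.92 in WT day 25. Of the 13 mt- genes, 7 had their highest level in the hair cell-like class and 6 in the adipocyte-like class with UMIs pooled over libraries, 14 hair cell-like barcodes of KO day 25 included. The share of all genes highest in either class is not given. By the mean over libraries with at least 20 barcodes, 6 were highest in each of these classes and mt-Cytb in the skeletal myotube-like class. By that mean mt-Co1 stood at 23710 CPM in hair cell-like cells, over 3 libraries, and at 15470 CPM in the next class, the otic epithelial-like, over 4. At day 35 the KO hair cell-like cells had a lower mt- share than WT by -0.43 and a lower nuclear sum by -0.13, both short of the fold, from 1 library each.

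Otic epithelial-like cells (177, 168, 907 and 1153 barcodes), the supporting and nonsensory cells next to hair cells, came next after the adipocyte-like and myotube-like classes for the mean mt- share, at 4.18%, 3.61%, 8.26% and 5.80%. Their nuclear sum was 29770, 30610, 40630 and 37200 CPM. The mt- share rose between days by 0.98 in WT and 0.68 in KO on the log2 scale, past the fold, while the nuclear sum was higher by 0.45 and 0.28, short of it. Ndufa1 stood in this class at 215, 240, 582 and 445 CPM and in the adipocyte-like class at 328, 396, 448 and 333 CPM, so the otic epithelial-like class was the higher of the pair at day 35 and the lower at day 25.

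At the other end, unnamed 0 (2011, 2740, 102 and 100 barcodes) ranked last of 20 for both sums by the mean over libraries, with nuclear sums of 25010, 25580, 30550 and 28150 CPM and mt- shares of 1.55%, 1.25%, 2.25% and 1.56%. Unnamed 2 held an mt- share of 11.8% in WT day 25, but its 23 barcodes there had a median of 0.869%, so that few barcodes carried that sum. In the other libraries it stood at 2.1%, 2.03% and 1.36%.

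**Figure D4:**
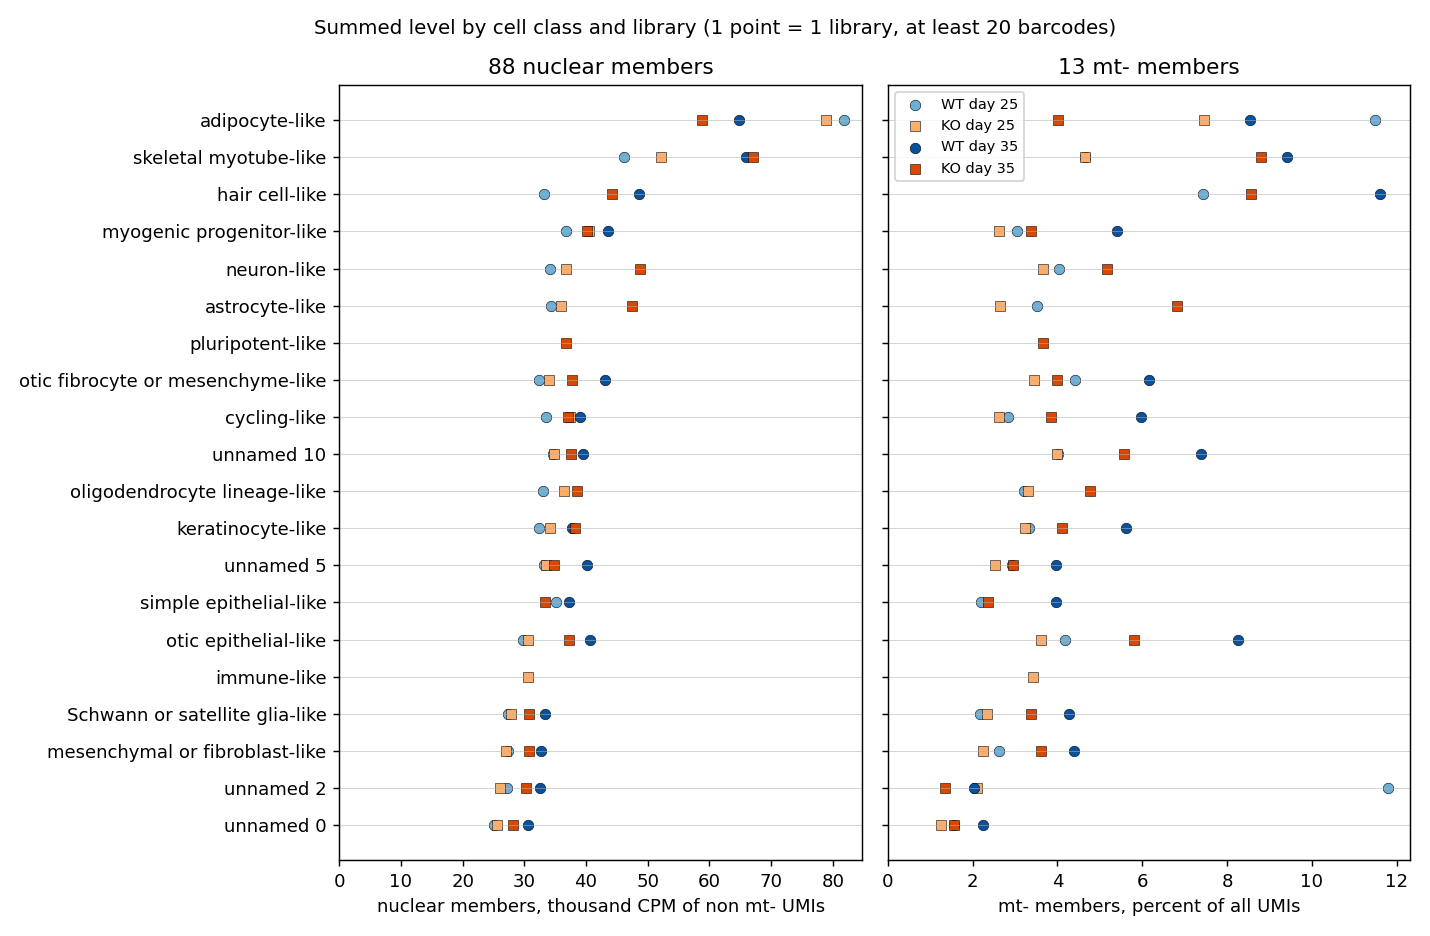
Nuclear members in CPM (axis in units of 1000) and mt- genes in percent of UMIs, by cell class and library; each point is the sum over the barcodes of a class in 1 library with at least 20 barcodes. Adipocyte-like and skeletal myotube-like cells lie highest on the nuclear axis, hair cell-like cells lie highest for mt- genes in WT day 35 (11.6%) and unnamed 0 lies lowest for both measures in the 2 libraries of day 25.

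Within classes the nuclear sum passed the fold in 0 classes in any of the 4 comparisons. Its median log2 ratio over classes was 0.051 and -0.12 between genotypes at day 25 and day 35, and 0.26 and 0.14 between days in WT and KO. The mt- share moved further. Between genotypes it was lower in KO in 14 of 16 classes at day 25, with 2 past the fold (adipocyte-like at -0.63 and unnamed 2 at -2.49), and in 15 of 15 at day 35, with 5 past it. Both day 25 calls turned under another barcode limit, adipocyte-like cells to 0.10 with at most 10% mt- UMIs per barcode and unnamed 2 to 1.06 with at least 1000 genes per barcode. Smaller day 25 ratios also rose above 0 under at least 1 alternative: keratinocyte-like (0.05), unnamed 10 (0.026), skeletal myotube-like (0.012) and neuron-like (0.005). That of Schwann or satellite glia-like cells (0.093) fell below 0 (-0.011), so the count of 14 depends on the setting. The median over classes was -0.21 and -0.51. Between days the mt- share was higher in 13 of 15 classes in WT (10 past the fold) and 14 of 16 in KO (4 past it), and the exceptions were the adipocyte-like class and unnamed 2 in each genotype. The medians were 0.75 and 0.49.

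Many single members, though not all, followed the library-wide direction in most classes. Uqcrb was called higher between days in 14 of 15 classes in WT and 15 of 16 in KO. Ndufa1 was called higher in 14 of 15 and 8 of 16, Ndufb4 in 13 of 15 and 6 of 16, and Ndufa4 in 6 of 15 and 6 of 16. mt-Nd3 was called higher in 12 of 15 and 14 of 16. Atp5a1 was lower at day 35 in 15 of 15 classes in WT, 11 of them past the fold, and Atp5b in 14 of 15, 10 of them past it. In KO each of these 2 genes was lower in 15 of 16 classes, but past the fold in only 2. Between genotypes at day 35, mt-Atp6 was lower in KO in 15 of 15 classes, 9 past the fold. Other members went against their library value in that comparison. Cox5a (0.085 over the library) was lower in KO in 11 of 15 classes, and Atp5d (-0.12) was higher in 11 of 15. These ratios all use the same 2 libraries per comparison, so classes are not replicates.

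The isoforms of complex IV differed most between classes, by the same measure on pooled UMIs: 5.42 for Cox6a2, 4.90 for Cox8b, 4.34 for Cox7a1 and 1.85 for Cox6b2. Cox6a2, the heart and skeletal muscle form of subunit 6a, had a level of 1088 CPM in skeletal myotube-like cells with UMIs pooled over libraries, against a median over classes of 15.7. By library it stood there at 803, 919, 1476 and 1503 CPM. Its share of the UMIs of Cox6a1 and Cox6a2 in that class was 65.0%, 62.7%, 74.2% and 74.2%, so it was the larger of the pair in all 4 libraries and more so at day 35. In myogenic progenitor-like cells the share was 22.6%, 16.7%, 15.6% and 16.6%. Outside muscle classes the median level was 13.6, 11.5, 32.1 and 16.8 CPM and the highest 31.4, 60.0, 79.8 and 40.7 CPM. The source of these UMIs was not tested.

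For the whole library, Cox6a2 stood at 95.9, 86.8, 276 and 92.6 CPM and was highest in WT day 35. It was called lower in KO at day 35 (-1.58, interval -1.63 to -1.52). Of the Cox6a2 UMIs in these 2 libraries, 85.0% and 81.8% lay in the skeletal myotube-like class. Within that class the genotypes differed at day 35 by 0.026 (interval -0.035 to 0.088), where the class held 1035 barcodes in WT and 279 in KO. Cox8b, the muscle form of subunit 8, followed it: the library values were 81.7, 75.2, 171 and 64.9 CPM (-1.40 between genotypes at day 35), and within the class the values were 407, 602, 862 and 944 CPM (0.13). Neither gene passed the fold within that class. Over all classes with enough UMIs, Cox6a2 was called lower in KO at day 35 in 5 of 7, as in otic fibrocyte-like cells (58.4 CPM in WT and 18.5 in KO, -1.66), and Cox8b in 5 of 8, the same class among them (50.8 and 28.5 CPM, -0.83). The classes called for Cox6a2 stood at 5.62 to 58.4 CPM.

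**Figure D5:**
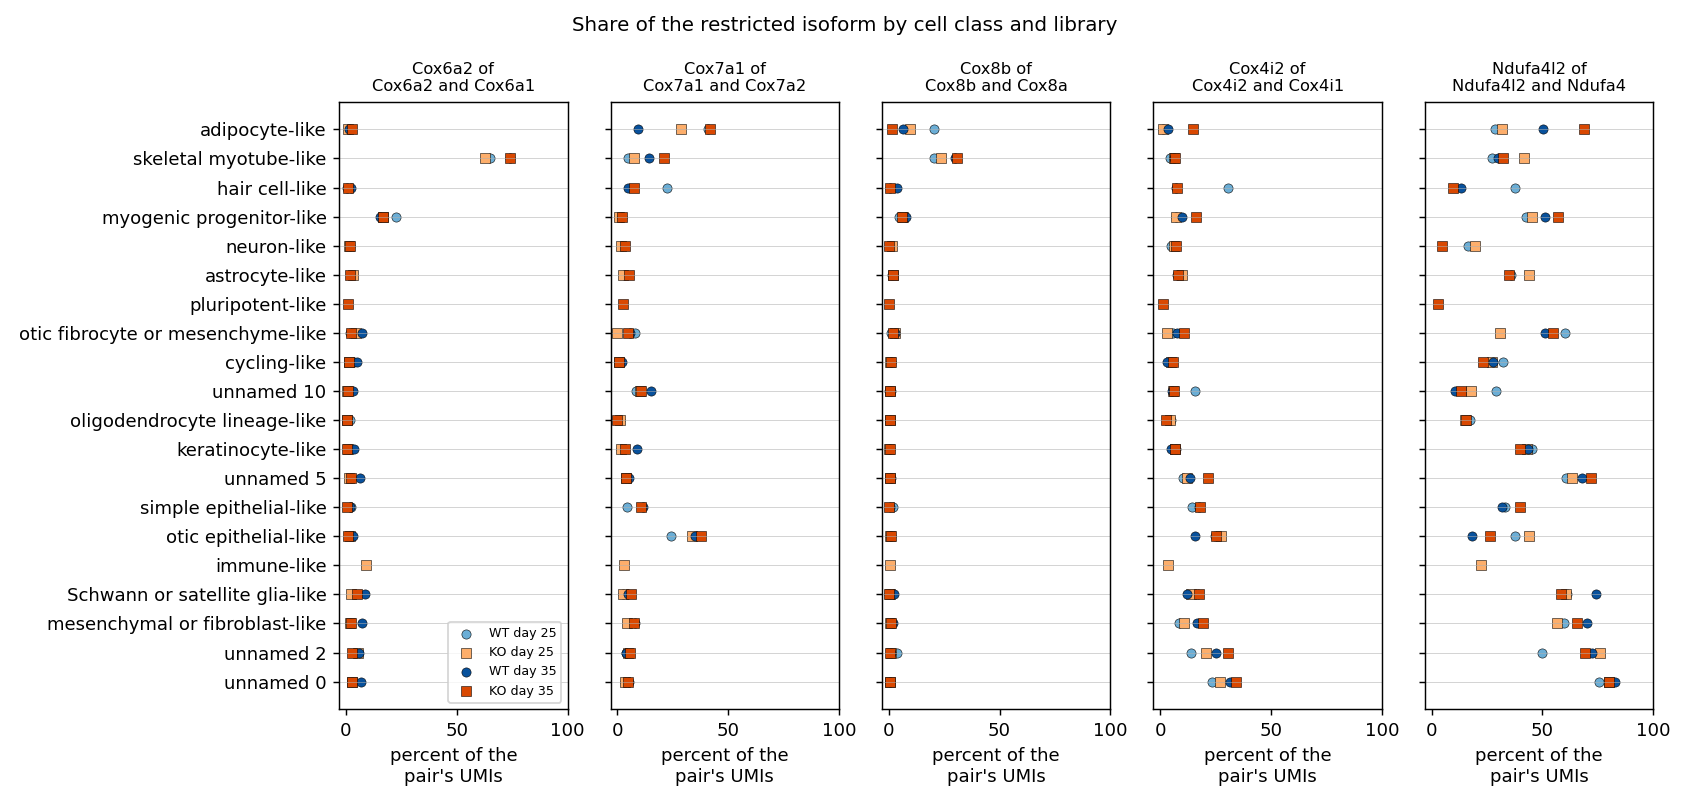
Share of the tissue-restricted isoform in the UMIs of its pair (percent), by cell class and library; each point is 1 class in 1 library. The share of Cox6a2 in skeletal myotube-like cells lies between 62.7% and 74.2%, above the other classes.

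Cox8b was also abundant in adipocyte-like cells at day 25 (828, 346, 200 and 50.2 CPM), lowest in KO day 35. Cox7a1, the form of subunit 7a known from heart, muscle and brown fat, stood in adipocyte-like cells at 875, 496, 120 and 723 CPM and in otic epithelial-like cells at 142, 236, 379 and 358 CPM. In skeletal myotube-like cells Cox7a1 stood at 28.9, 57.1, 142 and 246 CPM, with log2 ratios between days of 2.3 in WT and 2.11 in KO. Over whole libraries it stood at 52.2, 38.3, 104 and 118 CPM and was called higher at day 35 in both genotypes (0.99 and 1.62). By UMIs, most of Cox7a1 lay in adipocyte-like cells in WT day 25 (60.7%) and in otic epithelial-like cells in KO day 35 (56.8%).

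Cox4i2 and Ndufa4l2 are isoforms known to be induced at low oxygen. Cox4i2 stood in unnamed 0 at 418, 517, 624 and 618 CPM. In otic epithelial-like cells it stood at 517, 549, 245 and 406 CPM, so WT day 35 was the lowest and KO lay above it by 0.73. The 2 clusters of this class, 9 and 15, held 685 and 222 barcodes in WT day 35 and 570 and 583 in KO day 35, and the part of this make-up was not tested. In hair cell-like cells of WT, Cox4i2 stood at 721 CPM at day 25 and 110 CPM at day 35, from 24 and 137 barcodes. Ndufa4l2 stood in unnamed 0 at 1206, 1272, 2387 and 1673 CPM and in adipocyte-like cells at 786, 840, 1545 and 2509 CPM. Its share of the UMIs of Ndufa4 and Ndufa4l2 in unnamed 0 was 75.7%, 80.2%, 82.9% and 80.2%. In pluripotent-like cells of KO day 35 it stood at 55.5 CPM, the lowest value of any class used.

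Forms known from testis were rare. Cox7b2 had 78, 17, 9 and 89 UMIs, Cox8c had 2, 0, 1 and 6, too few to be tested, and Cox6b2 had 2729, 2206, 580 and 1254. Cox7b2 was called lower in KO at day 25 (-2.40) and higher at day 35 (3.10), on these few UMIs. Of the 89 Cox7b2 UMIs in KO day 35, 79 (88.8%) lay in the pluripotent-like class, which held 334 barcodes in that library and 0 to 13 in each other one. Of the Cox6b2 UMIs in KO day 35, 38.4% lay in that class and 22.1% in the astrocyte-like class. The called difference of Cox6b2 between genotypes at day 35 (17.3 CPM in WT and 32.3 in KO, 0.90) thus went with a class present in KO day 35 alone at 20 or more barcodes, and its part was not tested. Within classes with enough UMIs, Cox6b2 was higher in KO at day 35 in 2 of 6 and lower in 4, with 1 called each way. In the comparison of days in WT, Cox6b2 (37.6 to 17.3 CPM, -1.12) was called lower. Between days in KO it lay at 0.29 over the whole library, but within classes it was lower in 10 of 15, 7 of them past the fold.

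Related genes outside the symbols were counted from fixed lists. Of the 4 subunits of complex II, which feeds electrons from succinate, 0 were called in any comparison. Of 3 ATP synthase genes listed under other symbols, 2 were called higher between days in both genotypes: Usmg5 (1.35 in WT and 0.73 in KO), a small subunit, and 2010107E04Rik (1.15 and 0.75). Of 34 measured assembly factors under other symbols, 4 were called higher and 1 lower in WT, and 2 higher and 1 lower in KO. Pet100, an assembly factor of complex IV, was called in both (1.29 and 0.70). Mitochondrial ribosomal proteins (77 measured) had medians between days of -0.039 in WT and 0.12 in KO, with 4 called in each direction in WT, and 3 higher and 1 lower in KO. Of the 13 citric acid cycle genes, 3 were called lower in WT and 2 in KO. Cs, citrate synthase, lay at -1.27 and -0.59, and Dlst, of the 2-oxoglutarate dehydrogenase complex, at -1.01 and -0.59. The shares of all genes to set beside these lists are 16.9% called higher and 23.0% lower between days in WT, and 23.8% and 12.6% in KO.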

How the data were processed

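Inner ear organoids were taken apart into single cells (TrypLE, a strainer of 40 µm, 2% BSA) and loaded on a 10x Genomics 3′ kit (version 2) for about 10000 cells per library, per the labels' protocols. The authors deposited a table of UMI counts per gene and barcode for each of the 4 libraries. Cell Ranger 2.1.0, bcl2fastq, R 3.5.1, Seurat 2.3.1 and the builds mm10 and GRCm38 are named, per the submitters' processing notes, without their roles. A 3′ tag counts each captured molecule once, whatever its length, and strand use in counting is not given in the sources used here.

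Barcodes with at least 500 genes were kept, with no mt- limit. UMIs were summed per library or class; nuclear genes were divided by UMIs outside the mt- genes and mt- genes by all UMIs. With 1 library per group no test was run and no p-value is given: a change is called at 1.5-fold with at least 50 UMIs over both libraries, with exact conditional binomial 95% intervals for ratios and exact binomial or Poisson intervals otherwise. The ratio step was tested on simulated data. Members, gene lists and tests were chosen with earlier results of these data known. Genes named are the mt- genes, isoform sets, the highest nuclear member of each complex, up to 5 called members per direction and comparison, the 10 members most uneven between classes (log2 after adding 10 CPM), and list genes called alike in both genotypes or at both ages; others were chosen after their values were seen.

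Barcodes were clustered on 2000 variable genes without the members (30 components, 20 neighbours, Leiden resolution 1). Classes were named from fixed markers, while the thresholds for naming (3 markers among the 50 leading genes of a cluster, 2 among 20 and 1 among 10, all needed) were set after the data were examined. Doublets were kept; the highest scores, at 0.8% per 1000 barcodes, were left out as an alternative. Coding lengths and positions are from GENCODE M21 (GRCm38), promoters from RefSeq (GRCm38.p6). Python 3.11.15, numpy 2.4.6, scipy 1.17.1, pandas 2.3.3, scikit-learn 1.9.0, igraph 0.11.9, leidenalg 0.10.2 and matplotlib 3.10.9 were used. Alternatives were other barcode limits, minimums, denominators and resolutions, means over barcodes, centring, and medians over classes; means over libraries of a member's level in a class were added after seeing the data.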

Additional observations from a re-analysis of the deposited data

Results flagged for a closer look

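Cox7b2, the testis form of complex IV subunit 7b, moved in opposite directions at the 2 ages and in the 2 genotypes. Its log2 ratio of KO over WT was -2.40 at day 25 and 3.10 at day 35, and its ratio of day 35 over day 25 was -2.00 in WT and 3.49 in KO. These rest on 78, 17, 9 and 89 UMIs in WT day 25, KO day 25, WT day 35 and KO day 35, of which 79 of the last 89 lay in the pluripotent-like class. With 1 library per group, the difference between these ratios was not tested.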

How the results depend on the processing

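No paired analysis was possible because each group has 1 library. The median log2 ratio of nuclear members kept its sign under the alternatives run at day 35 between genotypes (-0.31 to -0.088), between days in WT (0.25 to 0.37) and between days in KO (0.00011 to 0.21); at day 25 between genotypes it lay between -0.015 and 0.051, on both sides of 0. For mt- members the ranges were -0.32 to -0.21, -0.62 to -0.31, 0.68 to 0.96 and 0.49 to 0.80. Medians over cell classes moved the nuclear value at day 25 from -0.015 to 0.051 and the mt- value from -0.31 to -0.21, and a limit of 10% mt- UMIs moved the latter to -0.23. Centring on the median of all genes moved the day 35 values between genotypes from -0.12 to -0.31 (nuclear) and from -0.42 to -0.62 (mt-), and the nuclear value between days in KO from 0.16 to 0.00011. Single classes turned: the mt- ratio of adipocyte-like cells at day 25 became 0.10 with the 10% limit, that of unnamed 2 became 1.06 with at least 1000 genes per barcode, and its ratio between days in WT became 0.94 with the 10% limit and 0.96 with at least 1000 genes. Other class ratios, mt- and nuclear, turned as well, and those of the mt- share between genotypes at day 25 are given above. The 10% limit left out 24.7% of adipocyte-like and 49.3% of hair cell-like barcodes. Adipocyte-like, myotube-like and hair cell-like cells stayed the first 3 by mean nuclear sum, but the hair cell-like mean then rested on 2 libraries and 89 barcodes. The adipocyte-like mean then rested on 3 libraries. Within single libraries without the limit, hair cell-like cells ranked 9 (WT day 25), 3 (WT day 35) and 5 (KO day 35) for this sum. For mt- genes, adipocyte-like cells went from rank 2 to 5 under the limit. The cause of these shifts was not tested. Counting intervals do not cover differences between organoids, dissociations or library preparations, and the WT day 35 library, with the lowest depth, is part of the comparison with the most called nuclear members, that between days in WT.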

Other observations

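Among genes that feed or regulate the respiratory chain, some differed by more than 1.5-fold in both genotypes. Pgk1, a glycolytic enzyme, had 45851, 38382, 5600 and 3786 UMIs in WT day 25, KO day 25, WT day 35 and KO day 35, with log2 ratios of day 35 over day 25 of -1.92 in WT and -2.24 in KO. Of the 20 glycolysis genes, 1 was called higher and 5 lower between days in WT, and 2 higher and 1 lower in KO. Between genotypes 0 of the 20 were called at day 25, and 3 higher and 2 lower at day 35. Of all genes, 16.9% were called higher and 23.0% lower between days in WT, and 23.8% and 12.6% in KO. Between genotypes it was 4.15% and 9.44% at day 25, and 17.0% and 5.73% at day 35. Pdk4, the kinase that holds back pyruvate dehydrogenase, had 181, 274, 772 and 624 UMIs (3.21 and 2.29), and Mpc1, part of the mitochondrial pyruvate carrier, was also called higher (0.81 and 0.63); these were the 2 called of the 10 pyruvate entry genes in each genotype. Suclg1, a succinyl-CoA ligase subunit, was lower in KO at both ages, at -0.80 and -0.98, from 6104, 4048, 2965 and 1742 UMIs, and Mrpl35, of the mitochondrial ribosome, at -0.74 and -0.70.

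Among 12 measured regulators of these genes, 2 were called higher and 2 lower between days in WT, and 3 higher and 2 lower in KO. Ppargc1a was called higher in both genotypes, on 162 to 257 UMIs per library. It lay at 0.60 in WT (interval 0.30 to 0.90) and 0.72 in KO (0.44 to 0.99). Its relative Ppargc1b was called lower in both (-0.86 and -1.15), on 158 to 752 UMIs per library. Of 16 measured genes of mitochondrial genome maintenance and expression, 2 were called higher and 7 lower in WT, and 4 higher and 0 lower in KO, with Mterf1a (1.96 and 0.82) and Mterf3 (0.92 and 0.82) called in both. Of 11 uncoupling and nucleotide exchange genes, 2 were called higher and 4 lower in WT, and 3 higher and 1 lower in KO; Ckmt2, the muscle form of mitochondrial creatine kinase, lay at 2.74 and 0.96. Mrpl53 lay at -1.02 and -2.02 between days. Of 2 genes of cytochrome c and c1, 1 was called higher in WT and 0 in KO. Cytosolic ribosomal protein genes were called higher in 13 and lower in 49 of 109 measured in WT, and in 12 and 43 of 110 in KO. Of 15 immediate early and heat shock genes, 9 were called higher in WT and 10 in KO, and Malat1, a nuclear RNA, lay at 0.97 and 0.79. These counts stand beside 16.9% of all genes called higher and 23.0% lower between days in WT, and 23.8% and 12.6% in KO.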
